A study of Rattus norvegicus with 19 samples.

Results

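Bdnf, Nptx2, Scg2, Vgf, Inhba, Pcsk1, Igf1 and Crh encode factors that neurons secrete, or an enzyme that matures such factors, and they were taken by gene symbol from the deposited RNA table. They are 8 of the 17715 gene symbols in that table. The table pairs each gene with every transcriptionally active putative enhancer (TAPE) whose centre lies within 1 Mb of the gene start; a TAPE is an intergenic stretch of open chromatin that is transcribed from both strands. The 8 genes had 188 such pairs of 388605 in all, and the 188 pairs held 188 distinct TAPEs of 27538, so that no TAPE was shared between them.

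Primary neuron cultures from Sprague-Dawley rat embryos were profiled by strand-specific total RNA-seq. Cortex, hippocampus or striatum was dissected at embryonic day 18, and cells were grown for 11 days in vitro before 1 h in vehicle (culture medium alone) or in potassium chloride (KCl), which depolarizes neurons. Sources differ on the dose of KCl, which is given as 25 mM with the samples and as 10 mM in the text on the series. The 19 libraries form 6 groups of 3, except for 4 libraries of striatum vehicle; all animals were of this strain and the labels name no engineered allele. Cultures held glial as well as neuronal RNA, and in such bulk samples fewer cells of a type and less RNA per cell cannot be told apart. The study's methods call the replicates biological, without saying whether they were separate litters, and p-values measure the spread between these libraries.

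Depolarization opens voltage-gated calcium channels, and calcium entry activates kinases that phosphorylate the transcription factor CREB and drive a first wave of transcription factors such as Fos and Npas4. Among the genes that follow are secreted proteins, which carry the response from one neuron to its neighbours. BDNF acts on TrkB receptors at synapses, Nptx2 clusters AMPA receptors, Scg2 and Vgf are granin-family precursors of secretory granules, Pcsk1 cuts such precursors into peptides, Inhba encodes the activin A subunit, Igf1 is a growth factor and Crh is the neuropeptide that starts the pituitary stress response.

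Libraries held 46411271 to 72521194 reads. Gene levels are RPM, the reads in each 1000000 library reads, from whole reads solved from the deposited correlations for 16507 symbols, all 8 genes among them. The 8 genes held 992 (Crh) to 141712 (Scg2) reads over the 19 libraries. Whether those reads came from exons only or from whole gene bodies is not given in the sources used here, so levels are compared between libraries and never between genes. The depolarization check genes Fos, Npas4, Arc, Egr1 and Nr4a1 rose in each region, with a median log2 change of 4.02 in cortex, 3.52 in hippocampus and 2.92 in striatum. Marker sums followed the region labels. The 3 cortex markers summed to 368.2 to 382.7 RPM in cortex, 84.9 to 97.3 in hippocampus and 1.77 to 2.38 in striatum libraries. The 4 striatum markers summed to 559.8 to 612.4 RPM in striatum, 103.4 to 109.9 in cortex and 41.1 to 53.1 in hippocampus libraries. Cortex vehicle replicate 3 is cortical by title and striatal by its tissue label, and its cortex marker sum lay in the cortex range. Tests used limma on log2(RPM + 0.1) for 13399 genes with a mean of at least 0.1 RPM, which all 8 genes passed, and a gene was called at a Benjamini-Hochberg adjusted p under 0.05.

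The promoters were searched for letters that CREB and related factors are known to bind. RefSeq start sites (GRCr8 assembly) were on hand for 6 of the 8 genes, in 11 windows of which 6 belonged to Bdnf; Pcsk1 and Crh were not among them. Not shown are Igf1, which rose with KCl in striatum but held no TGACG, and the Bdnf starts without TGACG. The last 150 bases before the start are shown for Scg2, Vgf, Nptx2 and the Bdnf start that held a match, and for Inhba, which did not rise with KCl. They read 5′ to 3′ on the gene's strand, and capitals mark TGACG on either strand, which takes in the full palindrome TGACGTCA. Scg2 lay at chr9:88256867-88257016 on the minus strand, Vgf at chr12:25277021-25277170 on the minus strand, Nptx2 at chr12:15162046-15162195 on the minus strand, Bdnf at chr3:116637708-116637857 on the plus strand and Inhba at chr17:53804509-53804658 on the minus strand.
Scg2: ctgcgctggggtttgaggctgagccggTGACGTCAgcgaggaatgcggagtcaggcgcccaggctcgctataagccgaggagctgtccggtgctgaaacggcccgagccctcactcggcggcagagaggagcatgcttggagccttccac
Vgf: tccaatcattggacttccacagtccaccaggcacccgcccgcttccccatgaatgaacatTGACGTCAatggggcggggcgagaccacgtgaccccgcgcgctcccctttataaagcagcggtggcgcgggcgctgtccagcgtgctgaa
Nptx2: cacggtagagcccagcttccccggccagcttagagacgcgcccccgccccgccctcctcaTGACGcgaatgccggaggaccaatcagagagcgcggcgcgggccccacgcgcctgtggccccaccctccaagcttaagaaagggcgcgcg
Bdnf: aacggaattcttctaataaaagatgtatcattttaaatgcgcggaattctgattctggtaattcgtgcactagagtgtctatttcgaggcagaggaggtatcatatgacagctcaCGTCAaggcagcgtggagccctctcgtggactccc
Inhba: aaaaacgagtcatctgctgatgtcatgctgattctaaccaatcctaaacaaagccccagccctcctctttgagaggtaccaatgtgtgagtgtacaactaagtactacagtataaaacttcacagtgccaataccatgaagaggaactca

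In the 250 bases before a start, TGACGTCA occurred for Scg2, 123 to 116 bases before the start, and for Vgf, 90 to 83 bases before it. It occurred in 2 of the 11 windows of these genes and in 1.59% of the 33469 windows of all genes. The shorter TGACG, which every TGACGTCA also holds, occurred in 4 of the 11 windows against 18.2% of all windows: those of Scg2 and Vgf, that of Nptx2 at 90 to 86 bases, and on the opposite strand that of 1 Bdnf start at 35 to 31 bases. TGANTCA, the AP-1 letters, occurred in 1 window (6.34% of all windows), and the outline of the CArG box, CC and GG parted by 6 bases, in 6 of 11 (65.1% of all windows). These are matches of letters on both strands within these windows, and nothing follows from them about a factor's binding in these cultures.

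To ask which of the genes answered 1 h of depolarization, KCl and vehicle libraries of the same region were compared. In cortex 6 of the 8 genes rose, in hippocampus 6 and in striatum 6, and none fell in any region. Among all genes tested, 3.96% were called higher and 0.508% lower in cortex (4.46% in either direction). The shares were 3.84% and 6.18% in hippocampus (10.0%), and 6.6% and 16.6% in striatum (23.2%). With libraries centred on their median, more genes were called higher than lower in hippocampus and striatum, so these shares depend on the scaling. The 8 genes were chosen with earlier results of these data known, so the shares beside them are a description and no test. Bdnf, Scg2, Vgf and Pcsk1 rose in all 3 regions, Inhba in none, and Nptx2, Igf1 and Crh in 2 of them. The 8 genes had a median log2 change of 0.98 (cortex), 0.48 (hippocampus) and 0.67 (striatum), beside -0.04, -0.04 and -0.06 over all genes tested. The groups did not overlap for 7 genes in cortex and 6 in each of the other regions; among all genes tested, 9.07% in cortex, 9.31% in hippocampus and 9.02% in striatum had KCl libraries all above vehicle libraries. The sum of the 3 inhibitory neuron markers was also higher after KCl in striatum (3009.7 to 3124.0 RPM, against 2705.5 to 2794.8 in vehicle), as was that of the 4 neuron markers (3641.4 to 3713.3 against 3471.1 to 3601.1). All 3 inhibitory markers were called there. Of the neuron markers Snap25 alone was called (limma adjusted p = 0.000944), and the means of Rbfox3 and Syt1 were not higher after KCl. In hippocampus the inhibitory sum was 341.2 to 356.5 RPM after KCl against 316.2 to 338.4 in vehicle, with Gad1 alone called. In cortex the sum of the 5 astrocyte markers was 1051.0 to 1182.1 against 1005.6 to 1038.3. None of these 5 was called, and only Slc1a3 had a higher mean after KCl (735.7 against 651.7 RPM, limma adjusted p = 0.114). Prox1, a hippocampal marker, held 16.8 to 18.9 RPM after KCl against 7.79 to 8.72 in cortex, and 7.18 to 8.11 against 2.8 to 3.99 in striatum. Their part in the rises of the 8 genes was not tested.

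**Figure D1:**
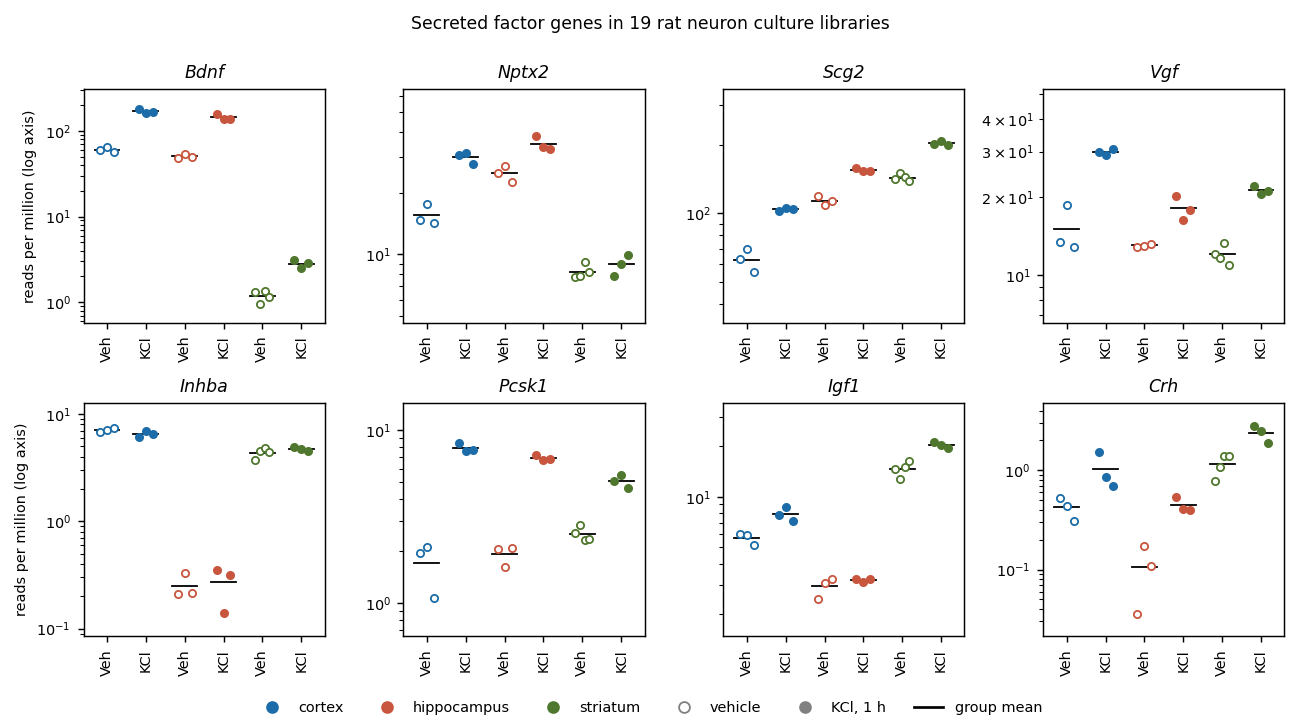
Level of each gene in each of the 19 libraries, as RPM on a logarithmic axis, with vehicle as open and KCl as filled points and a line at the group mean. Bdnf stood at 0.967 to 3.15 in striatum and at 48.5 or more in every cortex and hippocampus library, while Inhba was low in hippocampus alone, at 0.141 to 0.35.

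Of the secreted ligands, Bdnf rose by more than 2-fold in every region. In cortex its vehicle libraries held 59.7, 65.0 and 56.4 RPM and its KCl libraries 180.2, 162.9 and 165.1 RPM. All KCl libraries lay above all vehicle libraries, and the mean rose from 60.4 ± 4.32 (SD, n = 3) to 169 ± 9.4 (SD, n = 3), a 2.81-fold rise (log2 change 1.49 ± 0.06 SE, limma adjusted p = 3.65e-08).

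In hippocampus, Bdnf vehicle libraries held 48.5, 53.0 and 49.4 RPM and KCl libraries 159.0, 136.0 and 138.6 RPM. The groups were again apart, and the mean rose 2.87-fold (log2 change 1.52 ± 0.06 SE, limma adjusted p = 2.96e-10). Striatum held far less Bdnf: 1.32, 0.967, 1.35 and 1.16 RPM in vehicle and 3.15, 2.49 and 2.84 RPM after KCl, from 48 to 167 reads a library. The rise there was 2.36-fold (log2 change 1.18 ± 0.16 SE, limma adjusted p = 0.000429), and the groups did not overlap. The KCl effect on Bdnf was not shown to differ between regions (interaction F-test, limma adjusted p = 0.288): the striatal log2 change was 0.31 below the cortical one (95% interval 0.04 to 0.58, not adjusted for the number of genes). At a pseudocount of 0.5 the interaction passed (adjusted p = 0.00537), and over all alternatives its adjusted p ran from 0.00537 to 0.595.

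Nptx2, the neuronal pentraxin that gathers AMPA receptors at synapses, rose in cortex and hippocampus. Its cortex libraries held 14.8, 17.6 and 14.2 RPM in vehicle and 30.8, 31.3 and 27.7 RPM after KCl, and its hippocampus libraries 25.0, 27.2 and 22.7 RPM in vehicle and 38.0, 33.6 and 32.9 RPM after KCl. The groups were apart in both regions, with a 1.93-fold rise in cortex (log2 change 0.95 ± 0.09 SE, limma adjusted p = 5.04e-05) and a 1.4-fold rise in hippocampus (log2 change 0.48 ± 0.08 SE, limma adjusted p = 0.00106). In striatum the vehicle libraries at 7.71, 7.8, 9.2 and 8.15 RPM overlapped the KCl libraries at 7.87, 8.94 and 9.95 RPM. The striatal log2 change of 0.11 had a 95% interval from -0.1 to 0.33 (limma adjusted p = 0.448).

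Igf1, the insulin-like growth factor, rose in striatum, where it was highest. Striatum vehicle libraries held 14.6, 12.7, 15.1 and 16.4 RPM and KCl libraries 21.3, 20.4 and 19.6 RPM, without overlap, a 1.39-fold rise (log2 change 0.48 ± 0.08 SE, limma adjusted p = 0.00155). In cortex, vehicle libraries at 5.98, 5.93 and 5.14 RPM lay below KCl libraries at 7.78, 8.68 and 7.15 RPM. That 1.38-fold rise sat at the threshold (log2 change 0.46 ± 0.12 SE, limma adjusted p = 0.0461) and was not called after leaving out any one of the 6 cortex libraries, with adjusted p-values between 0.0542 (without KCl replicate 3) and 0.215 (without KCl replicate 2). In hippocampus 2.46, 3.08 and 3.24 RPM in vehicle overlapped 3.24, 3.09 and 3.25 RPM after KCl (95% interval of the log2 change -0.18 to 0.44). Cx3cr1 and Csf1r, the 2 of 4 microglial markers whose reads could be solved (microglia also make Igf1), summed to at most 0.106 RPM in every library. Solved reads of Pcsk1n and Npy were near 0 too, with group means of at most 0.154 and 0.0995 RPM. Whether such low values come from how the authors counted genes could not be checked. A microglial part in the Igf1 level was not tested.

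Inhba, whose product pairs into activin A, did not pass the test in any region. Its cortex libraries held 6.8, 7.07 and 7.47 RPM in vehicle and 6.14, 6.88 and 6.48 RPM after KCl, its hippocampus libraries 0.212, 0.327 and 0.217 and then 0.35, 0.141 and 0.317 RPM, and its striatum libraries 3.71, 4.57, 4.78 and 4.46 and then 4.97, 4.74 and 4.52 RPM. The groups overlapped in each region. The 95% intervals of its log2 change ran from -0.35 to 0.1 in cortex, from -0.65 to 0.71 in hippocampus, where a library held 8 to 20 reads, and from -0.13 to 0.36 in striatum. A rise of the size seen for Bdnf lay outside all 3 intervals.

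Crh rested on 2 to 149 reads a library. Its cortex libraries held 0.529, 0.441 and 0.312 RPM in vehicle and 1.53, 0.858 and 0.702 RPM after KCl, which did not overlap but did not pass the test (log2 change 1.05 ± 0.29 SE, limma adjusted p = 0.0721). In hippocampus 0.0354, 0.172 and 0.109 RPM rose to 0.542, 0.406 and 0.4 RPM (log2 change 1.47 ± 0.32 SE, limma adjusted p = 0.0104), and in striatum 0.774, 1.09, 1.38 and 1.38 RPM rose to 2.81, 2.49 and 1.88 RPM (log2 change 1.0 ± 0.21 SE, limma adjusted p = 0.00655). Both pairs of groups were apart. The cortex value passed in 1 fit of all 6 groups (adjusted p = 0.0202), with median centring (0.0473), with the replicate block (0.0245) and without cortex KCl replicate 3 (0.0446), and over all its alternatives the log2 change lay between 0.69 and 1.27 with adjusted p-values of 0.0202 to 0.243.

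The precursors of secretory granules, Scg2 and Vgf, rose in each region. Scg2, the source of secretoneurin, held 62.9, 69.6 and 55.0 RPM in cortex vehicle and 102.7, 105.3 and 105.1 RPM after KCl (1.67-fold; log2 change 0.74 ± 0.08 SE, limma adjusted p = 7.1e-05). In hippocampus it went from 119.0, 109.3 and 113.2 RPM to 158.5, 153.6 and 153.5 RPM (1.36-fold; limma adjusted p = 4.93e-06), and in striatum from 141.8, 150.3, 145.3 and 139.1 RPM to 202.7, 208.3 and 201.1 RPM (1.42-fold; limma adjusted p = 6.62e-07). The groups did not overlap in any region, and the striatal libraries of each treatment were the highest of their kind.

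Vgf, the precursor of peptides that act on synapses and on energy balance, held 13.4, 18.7 and 12.8 RPM in cortex vehicle and 29.8, 29.2 and 30.8 RPM after KCl (2.0-fold; log2 change 1.01 ± 0.12 SE, limma adjusted p = 0.000274). Its hippocampus libraries went from 12.8, 12.9 and 13.2 RPM to 20.2, 16.3 and 17.8 RPM (1.4-fold; limma adjusted p = 0.00262), and its striatum libraries from 12.1, 11.6, 13.3 and 10.9 RPM to 22.1, 20.6 and 21.2 RPM (1.78-fold; limma adjusted p = 1.19e-05). With no filter on low genes the Vgf calls in cortex and hippocampus were lost (adjusted p = 0.0516 and 0.0687). KCl libraries lay above vehicle libraries in all 3 regions, and the vehicle levels of the regions were close to each other.

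Pcsk1, the prohormone convertase that cuts granin and neuropeptide precursors, had the highest fold of the 8 genes in cortex. It held 1.94, 2.12 and 1.07 RPM in cortex vehicle and 8.47, 7.57 and 7.66 RPM after KCl, a 4.62-fold rise (log2 change 2.2 ± 0.21 SE, limma adjusted p = 4.41e-05). Hippocampus libraries went from 2.05, 1.62 and 2.08 RPM to 7.21, 6.72 and 6.81 RPM (3.61-fold; log2 change 1.81 ± 0.13 SE, limma adjusted p = 5.38e-07). Striatum libraries went from 2.53, 2.84, 2.33 and 2.35 RPM to 5.06, 5.53 and 4.62 RPM (2.02-fold; log2 change 0.98 ± 0.12 SE, limma adjusted p = 0.000205). Vehicle and KCl libraries were apart in all 3 regions.

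**Figure D2:**
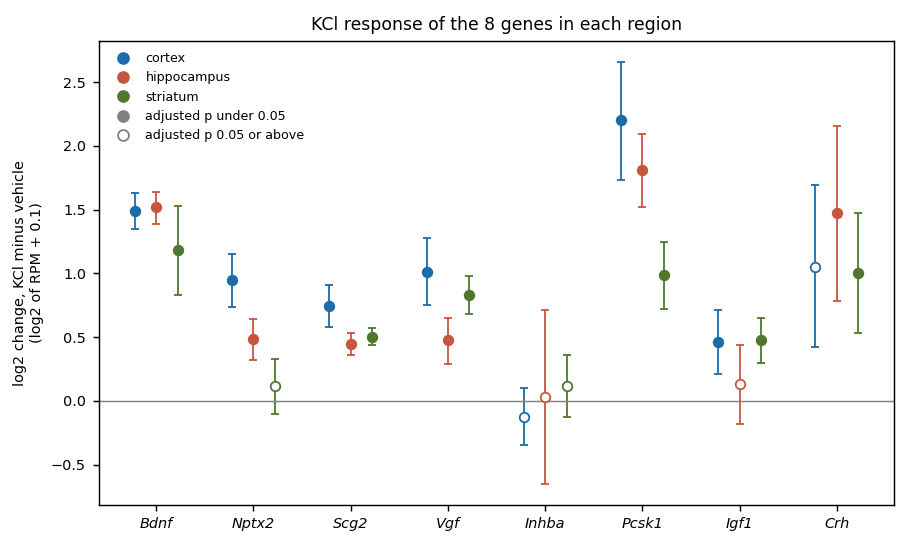
Difference between KCl and vehicle on the log2(RPM + 0.1) scale for each gene and region, with bars for the 95% interval of the limma fit and filled points for an adjusted p under 0.05. The change of Pcsk1 was 2.2 in cortex and 0.98 in striatum and that of Nptx2 0.95 and 0.11, while the intervals of Inhba cover 0 in all 3 regions.

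Over the 3 regions together, with region as a covariate, 7 of the 8 genes rose, against 8.09% of all genes tested (20.9% fell, 29.0% in either direction); Inhba did not (log2 change 0.01 ± 0.1 SE, limma adjusted p = 0.95). Whether the KCl effect differed between regions was tested by the interaction of region and treatment, which passed for 2 of the 8 genes, Nptx2 and Pcsk1, and for 3.55% of all genes tested. For Nptx2 (limma adjusted p = 0.000647) the cortical log2 change exceeded the striatal one by 0.83 ± 0.13 SE (limma adjusted p = 0.000256). For Pcsk1 (limma adjusted p = 0.0044) it exceeded the striatal one by 1.21 ± 0.23 SE (limma adjusted p = 0.00256). Of all genes tested, 2.12% differed in this contrast. Between cortex and hippocampus (1.81% of all genes) and between hippocampus and striatum (1.96%) no difference passed for either gene: the smallest adjusted p was 0.0767, for a Pcsk1 log2 change 0.82 higher in hippocampus than in striatum. Scg2 (limma adjusted p = 0.0507) and Vgf (limma adjusted p = 0.0815) came near the threshold, with the smallest log2 change of each in hippocampus, 0.45 and 0.47. Taken as a pair, the Scg2 change in cortex exceeded that in hippocampus by 0.3 ± 0.08 SE (limma adjusted p = 0.0483), and that of Vgf by 0.54 (limma adjusted p = 0.0552). Both passed after leaving out cortex vehicle replicate 2 (adjusted p = 0.00131 and 0.00109), the cortex vehicle library with the highest level of both genes; over all alternatives the adjusted p ran from 0.00131 to 0.115 for Scg2 and from 0.00109 to 0.258 for Vgf.

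The regions were then compared over both treatments together, so that the KCl response adds to the spread within a region; values with treatment as a covariate are given where they change a call. Level depended on region for 6 of the 8 genes, beside 83.0% of all genes tested, so that region dependence was the rule in these cultures. Between pairs of regions, 56.4% (cortex and hippocampus), 67.7% (cortex and striatum) and 74.1% (hippocampus and striatum) of all genes tested differed. For Bdnf, the difference between cortex (56.4 to 180.2 RPM) and hippocampus (48.5 to 159.0 RPM) did not pass with treatments pooled (limma adjusted p = 0.615). Within each treatment every cortex library lay above every hippocampus library, and with treatment as a covariate cortex was higher by 0.25 ± 0.08 SE on the log2 scale (limma adjusted p = 0.00904; 0.0435 in vehicle libraries alone). Both regions stood far above striatum (log2 difference of cortex 5.79 ± 0.37 SE, limma adjusted p = 4.06e-12). In vehicle libraries the cortical mean was 50.4 times and the hippocampal mean 42.0 times the striatal one, and after KCl these ratios were 59.9 and 51.1. Neuron class markers moved with this pattern: Neurod6, a gene of excitatory forebrain neurons, averaged 93.7 RPM in cortex vehicle, 81.7 in hippocampus vehicle and 0.0415 in striatum vehicle, while the 3 inhibitory markers summed to 242.8 to 271.0, 316.2 to 338.4 and 2705.5 to 2794.8 RPM. Their part in the Bdnf difference was not tested.

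Nptx2 was highest in hippocampus, then cortex, then striatum, and every step passed (limma adjusted p = 0.0354 between hippocampus and cortex and 4.41e-07 between cortex and striatum). Scg2 was lowest in cortex. Its striatal mean in vehicle was 2.31 times the cortical one, cortex was lower than both other regions (limma adjusted p = 0.00062 against hippocampus), and the difference between hippocampus and striatum did not pass with treatments pooled (limma adjusted p = 0.0597). With treatment as a covariate striatum was higher, hippocampus minus striatum being -0.37 ± 0.05 SE on the log2 scale (limma adjusted p = 1.85e-07), and the libraries of these regions did not overlap within either treatment.

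Inhba separated the regions in another order. Cortex exceeded striatum by 0.58 ± 0.12 SE (limma adjusted p = 0.000291), and striatum exceeded hippocampus by 3.71 on the log2 scale, hippocampus minus striatum being -3.71 ± 0.12 SE (limma adjusted p = 1.81e-17). The vehicle mean of hippocampus was 0.252 ± 0.065 RPM (SD, n = 3), against 7.11 ± 0.338 (SD, n = 3) in cortex, a ratio of 28.2. Astrocyte markers also differed between regions, in an order that was neither that of Inhba nor its reverse. They summed to 1810.6 to 1912.7 RPM in hippocampus, 1005.6 to 1182.1 in cortex and 273.2 to 305.4 in striatum libraries. Gfap carried most of the difference between hippocampus and cortex (752.6 and 42.7 RPM in vehicle), while Aldh1l1 (9.69 and 22.8) and Aldoc (168.7 and 187.6) ran the other way. Their part was not tested.

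Igf1 and Crh shared an order, striatum above cortex above hippocampus, with every step past the test. For Igf1 the striatal vehicle mean was 2.59 times the cortical and 5.02 times the hippocampal one. For Crh these ratios were 2.7 and 11.0, the latter over a hippocampal vehicle mean of 0.105 ± 0.0685 RPM (SD, n = 3) from 2 to 10 reads a library.

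Vgf and Pcsk1 were not shown to depend on region (limma adjusted p = 0.106 and 0.971). With treatment as a covariate Vgf passed (adjusted p = 8.59e-05), with cortex above hippocampus (adjusted p = 0.000117) and striatum (adjusted p = 0.000265), and in vehicle libraries alone both did (adjusted p = 0.041 and 0.0275). Vehicle means of Pcsk1 were 1.71 ± 0.563 RPM in cortex, 1.92 ± 0.259 in hippocampus (SD, n = 3 each) and 2.51 ± 0.237 in striatum (SD, n = 4). After KCl the order turned, and striatum held the lowest mean at 5.07 ± 0.456 RPM (SD, n = 3), below hippocampus at 6.91 and cortex at 7.9.

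As a description of which other genes followed the same profile, the Pearson r of log2(RPM + 0.1) over the 19 libraries was taken between each of the 8 genes and the 13399 genes tested. The points of such an r fall into 6 groups, so that it mostly records region and treatment, and no p is given. Bdnf was most like Pcdh8 (r = 0.99), Schip1 and Cbfb, Nptx2 most like Spry4 (0.987), Rhob and Ezr, and Scg2 most like B3gnt2 (0.986), Ptprn and Clstn3. Vgf was most like Pnrc1 (0.958), Smarca5 and Pam, and Pcsk1 most like Gadd45b (0.951), Cwc25 and Crem. Inhba was most like Slc35f1 (0.993), Mef2c and Grm8, Igf1 like Ivns1abp (0.989), Rcan2 and Stox2, and Crh like Wdr90 (0.956), Nfil3 and Slc38a2. Among the 8 genes themselves r was highest for Bdnf with Nptx2 (0.941), Igf1 with Crh (0.896) and Vgf with Pcsk1 (0.811), and lowest for Nptx2 with Igf1 (-0.827).

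The receptors, binding partners and processing enzymes of these factors, with other secreted peptides and growth factors, made lists of 50 genes, of which 44 were tested. Of these, 9 rose and 0 fell in cortex (20.5% and 0.0%, beside 3.96% and 0.508% of all genes tested). In hippocampus 8 rose and 4 fell (18.2% and 9.09%, beside 3.84% and 6.18%), and in striatum 9 rose and 4 fell (20.5% and 9.09%, beside 6.6% and 16.6%). Median log2 changes were 0.0, 0.0 and 0.01. The shares over all genes in hippocampus and striatum depend on the scaling, as given above. The lists were chosen with earlier results of these data known, so the shares are a description and no test of the lists. Among the receptors, Ntrk2, which encodes the BDNF receptor TrkB, rose in every region by 0.13 to 0.22 on the log2 scale, with limma adjusted p-values of 0.00268 to 0.0176. Igf1r, the receptor of Igf1, fell by 0.26 in hippocampus (limma adjusted p = 0.0144) and by 0.19 in striatum (limma adjusted p = 0.0109).

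Nptx1, the paralog of Nptx2, followed another pattern. It rose from 5.42 to 20.4 RPM in striatum (log2 change 1.9, limma adjusted p = 2.03e-07) and from 26.9 to 43.6 RPM in cortex (log2 change 0.69, limma adjusted p = 4.57e-05), and it stayed at 239.8 and 240.0 RPM in hippocampus (log2 change 0.0, limma adjusted p = 0.987); its KCl effect differed between regions (limma adjusted p = 1.54e-11). Striatum was thus the region with the largest Nptx1 change and the smallest Nptx2 change, a contrast between the paralogs that was not tested. Pam, the amidating enzyme of neuropeptides, rose in each region, by more in cortex (271.1 to 402.3 RPM, log2 change 0.57) than in hippocampus or striatum (0.27 in both; interaction, limma adjusted p = 0.000269).

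Among the other secreted peptides, Tac1, the substance P precursor, rose in all 3 regions (log2 change 0.66, 0.58 and 1.75 in cortex, hippocampus and striatum), as did Penk, the enkephalin precursor (0.78, 0.56 and 0.82). Fgf2, a fibroblast growth factor, rose in cortex from 2.17 to 5.02 RPM (log2 change 1.18, limma adjusted p = 0.00164). Ntf3, the neurotrophin related to BDNF, fell in hippocampus by 0.7 on the log2 scale (limma adjusted p = 0.00189), where Bdnf rose.

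**Figure D3:**
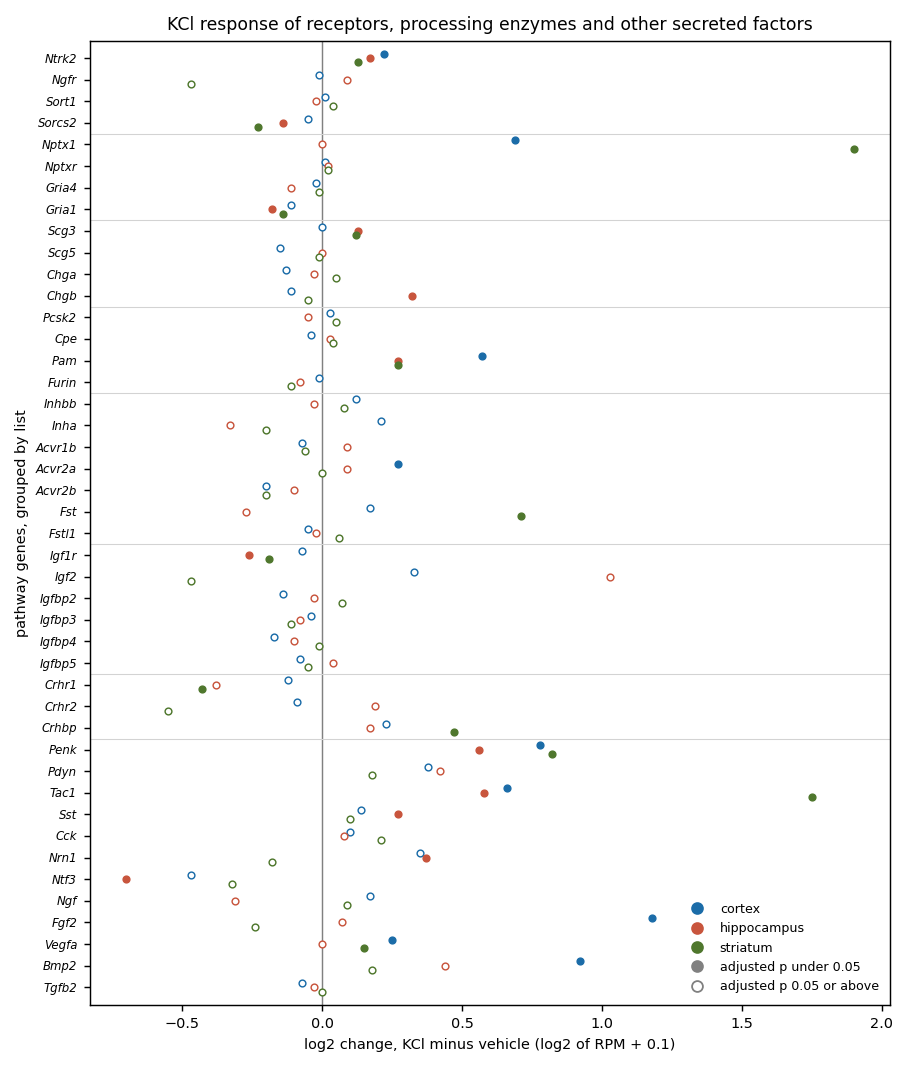
Log2 change between KCl and vehicle of the 44 tested genes of the pathway lists, with 1 point per region and filled points for an adjusted p under 0.05; grey lines part the lists. Most points lie near 0, and Nptx1 and Tac1 in striatum reach 1.9 and 1.75.

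TAPEs near the 8 genes were sparse. The 188 TAPEs held a median of 10.5 reads summed over 19 libraries, and 6 passed the filter of a mean CPKM of at least 0.05 (CPKM is reads per kilobase of TAPE and per 1000000 library reads): 2 for Inhba and 1 each for Nptx2, Vgf, Igf1 and Crh. None of the Bdnf, Scg2 or Pcsk1 TAPEs passed, and no TAPE lay within 100 kb of the Pcsk1 start. Of the 6 tested TAPEs, limma called 0 for KCl in cortex (0 with an unadjusted p under 0.05 and 0 by voom), 0 in hippocampus (1 and 0), and 1 in striatum, where it rose (2 and 1). The called shares of all TAPEs tested were 0.321%, 0.0535% and 1.23%, with 0.802% higher and 0.428% lower in striatum. Level depended on region for 3 of the 6, beside 48.8% of all TAPEs tested.

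The TAPE called in striatum was the one nearest to Igf1, at chr7:28369570-28371560 (Rn6, 1991 bp), 41633 bp from the Igf1 start at 28412198 on the plus strand. Its striatum libraries held 0.106, 0.0506, 0.0953 and 0.0347 CPKM in vehicle and 0.408, 0.269 and 0.231 CPKM after KCl. All KCl libraries lay above all vehicle libraries, and the mean rose 4.22-fold, from 32 reads over 4 libraries to 96 reads over 3 (log2 change 1.55 ± 0.3 SE on the log2(CPKM + 0.05) scale, limma adjusted p = 0.0223). The call was lost after leaving out any striatum library but vehicle replicate 2, with adjusted p-values of 0.0734 to 0.13 and log2 changes of 1.34 to 1.7. It was also lost with no filter on low TAPEs (adjusted p = 0.503), where 27538 TAPEs were tested.

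The Igf1 TAPE was also higher in striatum than in cortex (limma adjusted p = 0.000528) and hippocampus (limma adjusted p = 6.51e-05), contrasts in which 33.3% and 43.0% of all TAPEs tested differed. Igf1 itself was highest in striatum too. Its cortex libraries held 0 to 7 reads and its hippocampus libraries 0 to 5. The interaction of region and treatment did not pass (limma adjusted p = 0.171; 0.0535% of all TAPEs passed), except at a pseudocount of 0.5 (adjusted p = 0.00391). The deposited r with Igf1 was 0.831 over 19 libraries, 0.893 within the 7 striatum libraries, 0.644 within the 6 cortex libraries and -0.757 within the 6 hippocampus libraries, where few reads lie behind it. Of the 15 genes within reach of this TAPE, Igf1 was the nearest and had the highest r.

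**Figure D4:**
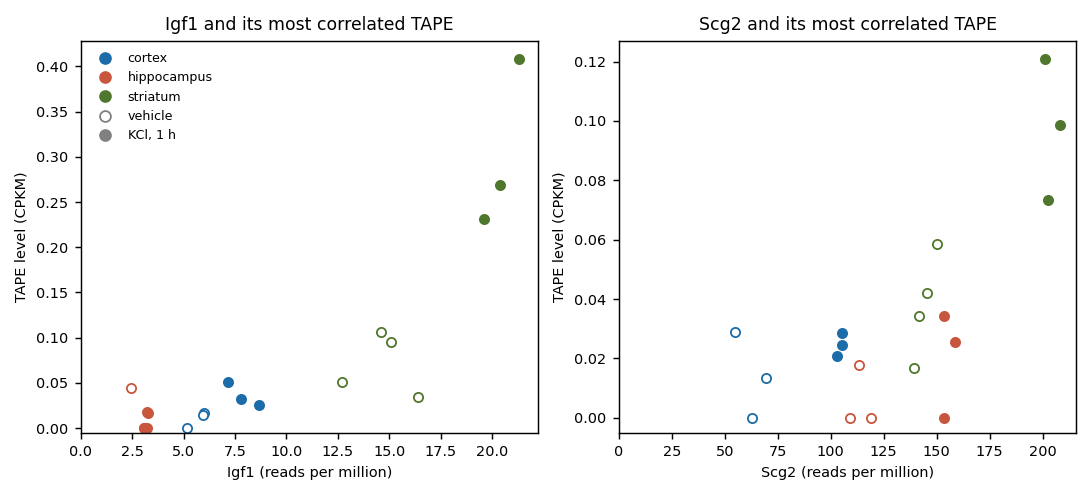
TAPE level (CPKM) against gene level (RPM) in each of the 19 libraries, for Igf1 with its nearest TAPE and Scg2 with its most correlated TAPE; colours give the region, and filled points KCl. In both panels the 3 striatum KCl libraries stand at the upper right, at 0.231 to 0.408 CPKM for the Igf1 TAPE and 0.0733 to 0.121 for the Scg2 TAPE. Each TAPE has the highest deposited r among those of its gene, and the Scg2 TAPE was picked by it. Gene levels were solved from such r, so the panels are no separate evidence of a link.

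The other called TAPEs lay far from their genes. A TAPE at chr12:23539789-23541642, 860085 bp from Vgf, was highest in hippocampus, at 1.36 ± 0.408 CPKM (SD, n = 6) against 0.754 in cortex and 0.593 in striatum (region F-test, limma adjusted p = 1.05e-05), and Vgf ranked 38 by distance among the 42 genes within its reach. A TAPE at chr17:52285487-52287871, 374183 bp from Inhba, passed narrowly (limma adjusted p = 0.0458), with no pair of regions past the test, and the call was lost when any of 12 libraries was left out. Its deposited r with Inhba was -0.529 over all libraries and 0.0212 to 0.326 within regions. The TAPE nearest to Inhba, at chr17:51913712-51916386 and 2553 bp from the start at 51912496, held 201 reads and did not depend on region (limma adjusted p = 0.738), although Inhba itself did.

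For Bdnf and Scg2 only low TAPEs were at hand, and they are given as reads. The TAPE nearest to Bdnf, at chr3:100762888-100764927 and 4729 bp from the start at 100768637, held 24 reads, of which the cortex libraries had 16 and the striatum libraries 0. The Bdnf TAPE with the highest deposited r (0.781), at chr3:100858548-100860639 and 90957 bp away, held 25 reads: 0, 4 and 0 in cortex vehicle, 2, 4 and 8 in cortex KCl, 0, 0 and 1 in hippocampus vehicle, 2, 2 and 2 in hippocampus KCl, and 0 in all 7 striatum libraries. Being picked by that r, it has a profile like that of Bdnf by choice. Summed over the 7 TAPEs within 100 kb of the Bdnf start, the cortex libraries held 28 reads in vehicle and 49 after KCl. The hippocampus libraries held 19 and 16, and the striatum libraries 0 and 0, which allows up to 3 reads for each of these striatum libraries. Counts this low were not tested, and such limits cover counting error only. They take reads as independent, although both mates of a paired-end fragment may have been counted.

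The 8 TAPEs within 100 kb of the Scg2 start together held 18 reads in cortex vehicle and 41 after KCl. They held 16 and 35 in hippocampus, and 23 (4 libraries) and 47 (3 libraries) in striatum. Single libraries held 1 to 12 in vehicle and 6 to 21 after KCl. These sums were not tested. The Scg2 TAPE with the highest r (0.731, and 0.889 within striatum), at chr9:85356850-85358909 and 114879 bp from the start, held 4, 6, 5 and 2 reads in striatum vehicle and 8, 11 and 13 in striatum KCl, a 2.58-fold difference of mean CPKM from 17 and 32 reads. It held 0 to 4 reads in each cortex and hippocampus library, was under the filter and was not tested. It was picked by its r with Scg2, which rose with KCl and was highest in striatum, so this profile follows from the choice. For Crh the nearest TAPE, 20655 bp away, held 8 reads in all, each of them in striatum libraries. For Pcsk1 the nearest TAPE lay 114868 bp from the start with 65 reads and a global r of -0.103.

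Over all 188 pairs, the deposited global r was above 0.5 for 15 (7.98%, beside 5.3% of all pairs in the table) and below -0.5 for 10, with a median of 0.0424 beside 0.00142. The 15 pairs belonged to Bdnf (7), Crh (4), Scg2 (2) and Igf1 (2). The 7 Bdnf TAPEs lay 47240 to 836731 bp from the start and held 5 to 34 reads each, 6 of all their reads in striatum. They were picked by their r with a gene that is low in striatum, so few striatum reads follow from the choice. All 33 Bdnf TAPEs together held 194 reads in cortex, 156 in hippocampus and 64 in striatum libraries. Each r was taken over libraries of 6 groups that share region and treatment, so a TAPE that differs between regions correlates with every gene of that pattern.

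**Figure D5:**
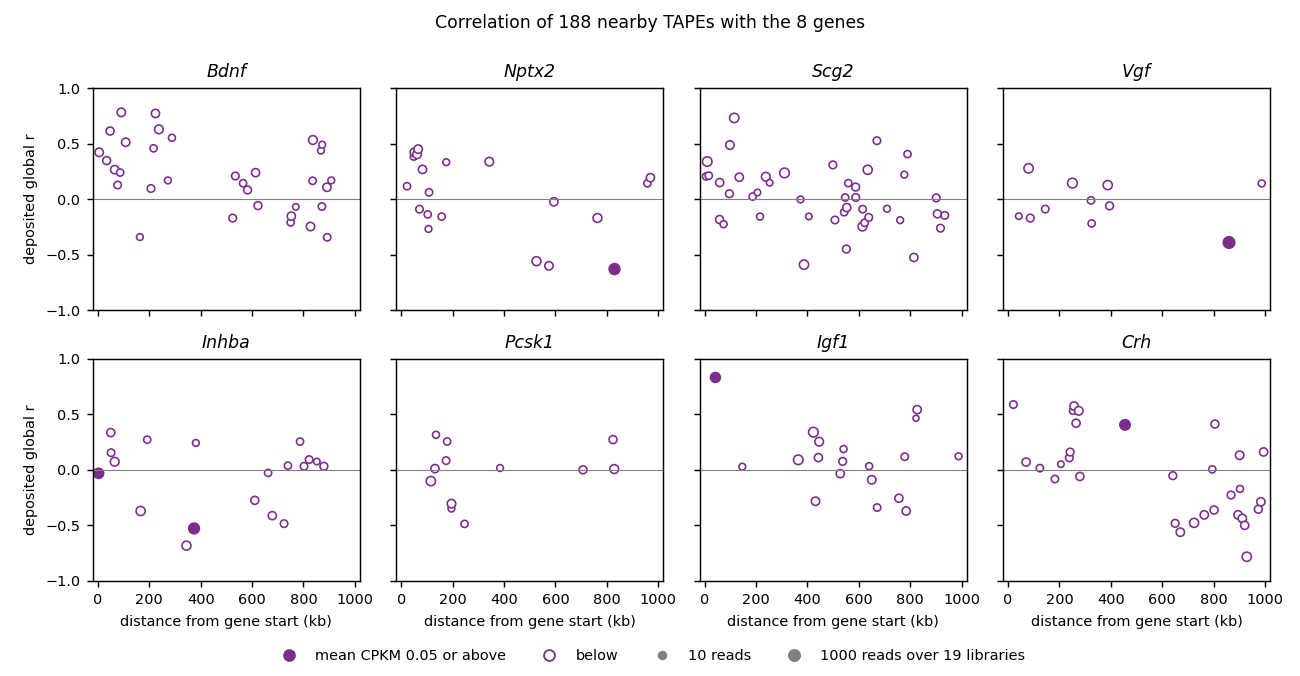
Deposited global Pearson r of TAPE and gene level over 19 libraries against the distance of the TAPE centre from the gene start (kb), 1 point per TAPE, filled where the mean CPKM was at least 0.05 and sized by the logarithm of its reads. The highest r, 0.831, belongs to the filled Igf1 point at 41633 bp, and the other filled points lie below 0.5.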

How the data were processed

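Gene and TAPE levels were taken from 1 table of 19 rat libraries. The authors trimmed reads with Trim Galore 0.4.5, aligned them with STAR to Rn6, merged lanes with SAMtools 1.9 and counted reads per TAPE in SeqMonk. The deposited TAPE values are RPKM (named CPKM by the authors), and the deposited correlations are a score, the Pearson r of TAPE and gene CPKM.

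CPKM times length gave whole reads and library totals. Gene reads were solved from the correlations of each gene with its TAPEs by lattice reduction (within 0.01 of whole reads; 16507 of 17715 symbols, 93.2%). In a test on known profiles 387 of 399 came back right, 0 wrong, and 12 had too few TAPEs. A gene's deposited r is therefore no independent evidence of its level. Strand and span of the authors' gene counts are not given in the sources used here; overlapping and antisense genes could not be checked.

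Tests used limma 3.58.1 in R 4.3.3 (lmFit, eBayes with trend, two-sided, Benjamini-Hochberg over all features) on log2(CPKM + 0.05) for the 1870 TAPEs whose mean reached 0.05 CPKM and on log2(RPM + 0.1) for 13399 genes. KCl was compared with vehicle within a region, regions over all 19 libraries, and the interaction by an F-test. Fold changes in words are ratios of mean RPM or CPKM. On these scales the change of low features is understated. The fit was tested on simulated data. A count model was never the main test, since the table holds normalized values. Pairs of libraries of a group had a mean chi-square per gene of 3.37 to 22.1, where 1 is the sampling noise of independent reads. The libraries were paired-end, and whether both mates of a fragment were counted is not given in the sources used here. Counting both would raise the value for sampling noise alone, so the excess over it can be overstated. With libraries centred on their median, the split of called genes, higher and lower, went from 515 and 828 to 825 and 649 in hippocampus and from 884 and 2230 to 2369 and 896 in striatum.

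Named were all 8 genes; per gene, the nearest TAPE, that of highest global r, those called for KCl and up to 3 of smallest region p; the 3 most similar genes; and pathway genes past the test. Further Bdnf counts were chosen after values were seen. Members and lists were chosen with earlier results of these data known. RefSeq promoters (GRCr8) matched 6 of 8 genes; no GRCr8 coordinate was mixed with Rn6. Alternatives were 2 pseudocounts, no filter, median centring, 1 fit of all 6 groups, voom on recovered reads, a replicate block, treatment as a covariate, vehicle libraries only, an exact permutation and leaving out each library.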

Additional observations from a re-analysis of the deposited data

Results flagged for a closer look

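The KCl effect differed between regions for Nptx2 (interaction F-test, limma adjusted p = 0.000647), which rose 1.93-fold in cortex and 1.4-fold in hippocampus and did not pass in striatum (1.09-fold, limma adjusted p = 0.448), and for Pcsk1 (limma adjusted p = 0.0044), which rose 4.62-fold, 3.61-fold and 2.02-fold. Pcsk1 had its highest vehicle mean and its lowest KCl mean in striatum.

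In the striatum vehicle group of 4 libraries, 1 library stood apart from the others for 3 of 26 genes and TAPEs examined, about 1 in 20 being flagged by chance. Each is a TAPE with no reads in 3 of the libraries, so that the gap to the other libraries is the whole range (a ratio of 1.0): the TAPE nearest to Nptx2 with 1 read in replicate 2, the TAPE nearest to Vgf with 1 read in replicate 2, and the TAPE nearest to Crh with 4 reads in replicate 6. None of these was tested.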

How the results depend on the processing

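Of 1410 values of single genes and TAPEs under an alternative, 1341 kept direction and side of the threshold, 34 lost and 18 gained a call, and 17 changed sign, none of them called. The count of the 8 genes called for KCl in hippocampus fell to 3 with no filter on low values, where the hippocampal rises of Nptx2, Vgf and Crh missed the threshold (adjusted p = 0.0776, 0.0687 and 0.0832; 16507 genes were then tested), and that in cortex from 6 to 4, Vgf (0.0516) and Igf1 (0.129) being lost. The count with a KCl effect differing between regions went from 2 to 4 at a pseudocount of 0.5. For TAPEs, no filter meant that all 188 were tested instead of 6. The count called for KCl in striatum then went to 0, and that for region from 3 of 6 to 6 of 188. The region call of the distal Inhba TAPE was lost (region F-test, limma adjusted p = 0.212). A pseudocount of 0.5 gave 1 TAPE whose KCl effect differed between regions. The cause was not tested.

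Leaving out 1 library gave 7 to 7 genes over the 3 regions, 6 to 7 for region dependence, 2 to 4 for the interaction (4 without cortex vehicle replicate 2), 5 to 6 in cortex, 6 to 6 in hippocampus and 6 to 6 in striatum; for TAPEs, 2 to 3 for region, 0 to 0 for the interaction, 0 to 0 in cortex and hippocampus, and 0 to 1 in striatum. Without cortex vehicle replicate 3, whose tissue label differs from its title, 5 genes were called in cortex, Igf1 being lost (adjusted p = 0.142). Values that changed sign lay near 0: Inhba from -0.04 to 0.09 over the 3 regions and from -0.14 to 0.31 in hippocampus, a Nptx2 TAPE from -0.46 to 0.02 in cortex and from -0.45 to 0.16 in hippocampus, and the distal Inhba TAPE from -0.3 to 0.1 in striatum (0.11 with median centring and 0.0 with voom).

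Replicate numbers are shared by vehicle and KCl in cortex and hippocampus. Deviations of same-numbered libraries correlated at -0.126 to 0.0652 over genes and -0.0418 to 0.0142 over TAPEs. No shared deviation was seen, but with 3 libraries a group a shared preparation can go unseen. With the replicate block, 6 genes were called in cortex and 6 in hippocampus, and 0 and 0 TAPEs; Igf1 in cortex was lost (adjusted p = 0.0504) and Crh gained (adjusted p = 0.0245). Counts over all genes tested moved by more than 1.5 times for KCl in hippocampus (from 1343 to 361 with no filter and to 798 with the block) and in cortex (from 598 to 1073 in 1 fit of all 6 groups). Over all TAPEs, KCl calls moved from 6, 1 and 23 in cortex, hippocampus and striatum to 0, 0 and 2 with no filter, in cortex and hippocampus to 10 and 4 with median centring, 12 and 19 in 1 fit of all 6 groups and 3 and 0 with the block, and in striatum to between 0 and 8 without 1 library. Calls for region moved from 912 of 1870 TAPEs to 2026 of 27538 with no filter. Those for the interaction moved from 1 to 2 with no filter and to 13 at a pseudocount of 0.5. Most TAPEs held too few reads to test.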
